A study of Homo sapiens with 12 samples.

Results

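ITLN1, ITLN2, LRP1, LRP2, NCL and ASGR1 are 6 genes whose products have been reported, or are close relatives of products reported, to bind lactoferrin at the cell surface. They were chosen by name, with no measured value in the rule, and are 6 of the 48162 gene rows of the deposited count table. All 6 passed the filter on low counts and were among the 16733 genes tested. ITLN1 and ITLN2 passed it only through the groups other than methotrexate alone, as given below. Their RNA was followed in spheroids of Caco-2, a human colorectal carcinoma line that takes on features of small intestinal enterocytes in culture.

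Lactoferrin is an iron-binding glycoprotein of the transferrin family, abundant in milk and in mucosal secretions, and it is taken up by intestinal epithelium. No single receptor accounts for its binding. The product of ITLN1 is a secreted or membrane-anchored lectin first described as the intestinal lactoferrin receptor, and ITLN2 is its paralog. LRP1 and LRP2 (megalin) are giant endocytic receptors of the LDL receptor family that carry many unrelated ligands through clathrin-coated pits. NCL encodes nucleolin, a nucleolar protein of ribosome production that also reaches the cell surface, and ASGR1 encodes the major subunit of the asialoglycoprotein receptor, which clears galactose-ending glycoproteins in liver.

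Bulk RNA was sequenced from 12 libraries in 4 groups of 3. Cells at passage 26 were embedded in Matrigel, grown for 5 days in DMEM with 20% fetal bovine serum, penicillin and streptomycin and non-essential amino acids without a change of medium, and then exposed for 4 h. The control group received carrier fluid, and the others received methotrexate, an antifolate that blocks dihydrofolate reductase, lactoferrin, or methotrexate and lactoferrin together. The sources used here give neither doses nor the origin of the lactoferrin. All groups are 1 cell line, and the labels do not state separate cultures within a group, so p-values measure the spread between these libraries, which may be technical.

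ITLN1 (ENSG00000179914) lies on chr1:160846329-160854960 and ITLN2 (ENSG00000158764) on chr1:160914815-160924589, both on the minus strand of hg19, the build of the table. LRP1 (ENSG00000123384) lies on chr12:57522276-57607134 on the plus strand, and LRP2 (ENSG00000081479) on chr2:169983619-170219195 on the minus strand. NCL (ENSG00000115053) lies on chr2:232318242-232348352 and ASGR1 (ENSG00000141505) on chr17:7076750-7082883, both on the minus strand. LRP1 shares 3647 bases with STAT6 on the other strand, whose counts were 941 to 4345, and the sources used here do not say whether counting used strand. It also shares 3000 bases with the antisense locus RP11-545N8.3, with 0 to 13 counts per library, and ITLN2 shares 4898 bases with the antisense locus RP11-544M22.1, with 0 to 1 counts.

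ITLN1 and ITLN2 are paralogs, and some of their reads could fit both genes. The other 4 members were not checked for similar copies. Their coding sequences in GENCODE release 29 are 942 bases (ITLN1) and 978 bases (ITLN2), and they were identical at 87.2% of 938 aligned positions. The longest run without a difference was 110 bases. Of all windows of 50 bases in the ITLN1 coding sequence, 9.29% also occurred in that of ITLN2, and 1.31% of windows of 100 bases did. The stretch around that run is shown because reads wholly inside the run fit both genes. It covers coding positions 313 to 482 of ITLN1 and 349 to 518 of ITLN2, with the 6 positions that differ in capitals.
ITLN1: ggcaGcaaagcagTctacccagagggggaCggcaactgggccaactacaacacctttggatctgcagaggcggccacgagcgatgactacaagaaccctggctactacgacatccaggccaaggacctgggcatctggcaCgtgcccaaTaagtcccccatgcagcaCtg
ITLN2: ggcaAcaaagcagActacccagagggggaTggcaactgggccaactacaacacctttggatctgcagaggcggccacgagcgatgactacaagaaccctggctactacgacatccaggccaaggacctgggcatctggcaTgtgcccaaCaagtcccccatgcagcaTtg
The sources used here do not say how reads that fit both genes were counted, so each intelectin value below carries that uncertainty.

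Library totals were 18714054 to 23859094 counts in the control, lactoferrin and combined groups and 47459811 to 60591667 counts in the 3 methotrexate libraries, and the mitochondrial share was 2.00% to 3.34% and 6.67% to 7.54%. Enterocyte markers were present in every library, with all 10 above 0 in each group and a summed level of 3236 to 3338 CPM (the depth-normalised read count, after TMM scaling) in control and 1567 to 1626 CPM in methotrexate. The methotrexate libraries also held RNA that goes against a culture of Caco-2 alone. Adipocyte markers summed to 21423 to 22303 CPM there, against 46.1 to 50.9 CPM in control, 44.6 to 46.8 CPM in lactoferrin and 41.3 to 47.9 CPM in the combined group, and all 10 were higher in methotrexate than in control. Fibroblast markers summed to 924 to 1027 CPM in lactoferrin and 937 to 1087 CPM in the combined group. They summed to 9982 to 11482 CPM in methotrexate and 932 to 1042 CPM in control, with 9 of 10 higher and 1 lower. The 1 lower was FBLN1, which made up most of the control sum, at 877 ± 47.9 CPM in control and 472 ± 43.7 CPM in methotrexate. Of the 6 endothelial markers tested, 5 were higher in methotrexate than in control, with TEK and EMCN at 0 in all control libraries. All 9 with counts, tested or not, summed to 12.6 to 15.1 CPM in methotrexate and 3.01 to 3.79 CPM in control. The sum was 3.60 to 4.28 CPM in lactoferrin and 4.85 to 5.73 CPM in the combined group. None was called in the combined group against control. The origin of the marker RNA in the methotrexate libraries was not tested, so each comparison with those libraries is one between libraries labelled methotrexate and the others. The differences of the 6 members with the methotrexate libraries are given on 2 scales, TMM and an epithelial scale set by 40 brush border and junction genes, which asks how a gene moved relative to epithelial RNA. The median log2 difference of all genes between methotrexate and control was 0.03 on the first and 0.95 on the second. The 40 genes did not move together: on their own scale 9 were called higher and 2 lower in that comparison. Fewer epithelial cells, less RNA per epithelial cell and a share of the library taken up by other RNA cannot be told apart in bulk samples.

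In control spheroids the 6 genes spanned a wide range of RNA levels, with NCL at the top and the intelectins at the bottom. Levels are compared between genes as RPKM, which divides the CPM by the gene length that the table gives. NCL stood at 242 ± 15.4 RPKM (SD, n = 3), above 98.8% of the genes tested. LRP1 followed at 44.4 ± 7.51 RPKM, above 90.8% of genes. ASGR1 stood at 20.2 ± 1.26 RPKM, above 80.2% of genes, and LRP2 at 9.56 ± 1.96 RPKM, above 65.5%. ITLN1 reached 0.632 ± 0.191 RPKM and ITLN2 0.378 ± 0.107 RPKM, above 23.3% and 18.1% of the genes tested. The mean of NCL was thus 641 times that of ITLN2. The genes tested include some at or near 0 in control that passed the filter through other groups, such as TEK. The percentages are therefore not ranks among genes expressed in control spheroids.

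No neighbours in that order overlapped among the 3 control libraries, although the intelectins were close, with a lowest ITLN1 value of 0.500 RPKM and a highest ITLN2 value of 0.458 RPKM. The order of the means was the same in all 4 groups. The ranges of ITLN1 and ITLN2 overlapped in the lactoferrin and combined groups, and no other neighbours overlapped in any group. The table's length of 2083 bases for ASGR1 is that of a transcript with a retained intron. With its longest protein-coding transcript of 1552 bases, ASGR1 stood at 27.1 RPKM, still between LRP1 and LRP2; this length was chosen after the data had been seen.

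**Figure D1:**
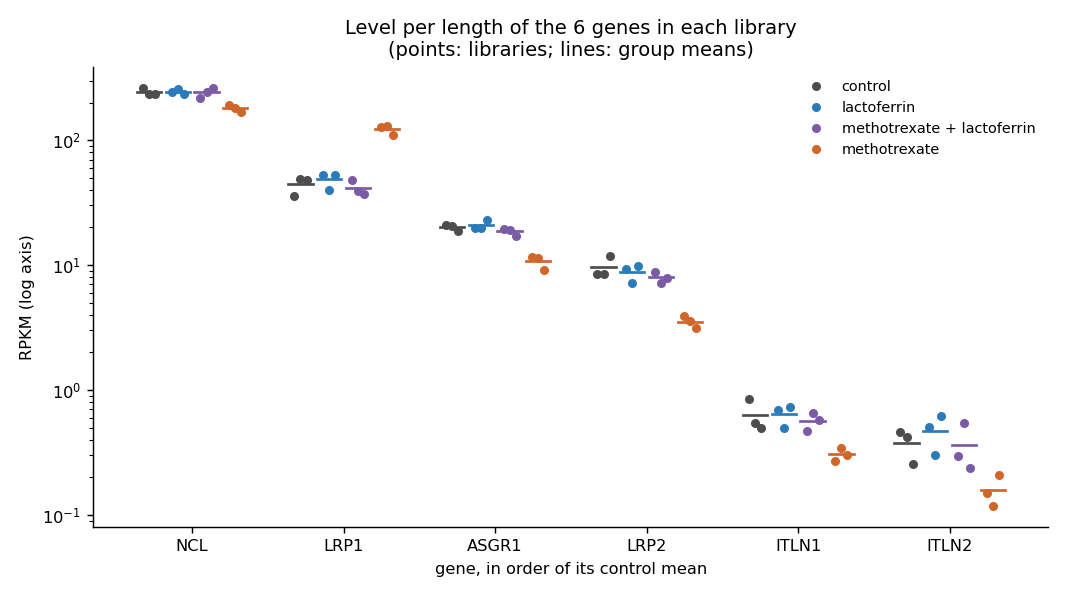
RPKM (log axis) of the 6 genes in each of the 12 libraries, with points for libraries, lines for group means and colours for the 4 groups. NCL stands at 168 RPKM or more and both intelectins below 1 RPKM in every library, and the methotrexate points of LRP1 lie above those of the other groups while those of the other 5 genes lie below.

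The promoter windows of 5 members were found in RefSeq (GRCh38.p14), taken here as the 250 bases before the start of the gene. ITLN1 and ITLN2 held 3 and 4 CG dinucleotides, LRP1 and LRP2 held 20 and 21, and NCL held 34, more than 93.2% of 35116 such windows, whose median is 11. The motif TATAA, searched on both strands, occurred in the ITLN1 window and in no other of the 5, and in 18.9% of all windows. The motif GGGCGG, searched on both strands, occurred in LRP1, LRP2 and NCL and in 42.6% of all windows. The windows of ITLN1 (GRCh38.p14, chr1:160885181-160885430, minus strand) and NCL (chr2:231464485-231464734, minus strand) are printed as the intestinal lectin and the most abundant member, 5′ to 3′ with each CG in capitals. A match of letters is a description, with no factor binding measured here.
ITLN1 promoter: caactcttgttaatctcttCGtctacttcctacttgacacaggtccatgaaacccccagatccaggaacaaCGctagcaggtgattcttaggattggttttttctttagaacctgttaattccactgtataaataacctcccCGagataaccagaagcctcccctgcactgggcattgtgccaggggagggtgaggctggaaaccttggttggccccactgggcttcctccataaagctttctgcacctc
NCL promoter: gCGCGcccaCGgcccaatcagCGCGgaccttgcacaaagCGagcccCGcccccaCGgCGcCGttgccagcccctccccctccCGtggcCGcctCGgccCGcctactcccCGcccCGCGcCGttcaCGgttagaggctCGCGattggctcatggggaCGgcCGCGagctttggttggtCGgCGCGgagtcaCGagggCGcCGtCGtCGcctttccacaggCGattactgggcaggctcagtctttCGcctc

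Lactoferrin alone was compared with carrier fluid. None of the 6 genes passed the test, and the ranges of the lactoferrin and control libraries overlapped for each of them. The most abundant, NCL, was 1049, 948 and 937 CPM in the control libraries and 975, 1036 and 937 CPM with lactoferrin. Its means of 978 ± 62.1 and 982 ± 50.02 CPM (SD, n = 3) gave a fold of 1.00 (95% interval 0.878 to 1.15).

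LRP1, the clathrin-dependent scavenger of many ligands, was 533, 733 and 720 CPM in control and 782, 597 and 786 CPM with lactoferrin. The first control library was the lowest of the 6 and the second lactoferrin library the next lowest, and the fold was 1.09 (0.886 to 1.34). LRP2, its apical relative, was 133, 134 and 187 CPM in control and 147, 114 and 154 CPM with lactoferrin, a fold of 0.915 (0.739 to 1.13). ASGR1 was 44.0, 43.2 and 39.1 CPM in control and 41.3, 41.2 and 47.7 CPM with lactoferrin, a fold of 1.03 (0.873 to 1.22). For these 4 abundant genes the bounds of the intervals lay between 0.739 and 1.34.

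The intelectins rested on few reads. ITLN1 had 21, 16 and 14 counts in the control libraries and 17, 12 and 17 with lactoferrin, and ITLN2 had 11, 12 and 7 and then 12, 7 and 14. The folds were 1.02 (0.616 to 1.69) and 1.25 (0.646 to 2.42), so that the interval of ITLN2 included a change of 2-fold. For ITLN1, the sum of 51 control counts gave 0.735 CPM with an exact Poisson interval of 0.547 to 0.966 CPM, which covers counting error only.

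By edgeR's quasi-likelihood test, adjusted by Benjamini-Hochberg over all genes, 0 of the 16733 genes tested differed between lactoferrin and control (0%), and the adjusted p of each of the 6 members was 1. At an unadjusted p under 0.05 there were 628 genes, 0 of them members, and DESeq2 and limma-voom also called 0 genes. The share of all genes whose groups did not overlap was 10.1%. None of the genes in the lists of related receptors, partners and binding molecules described below passed the test either.

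**Figure D2:**
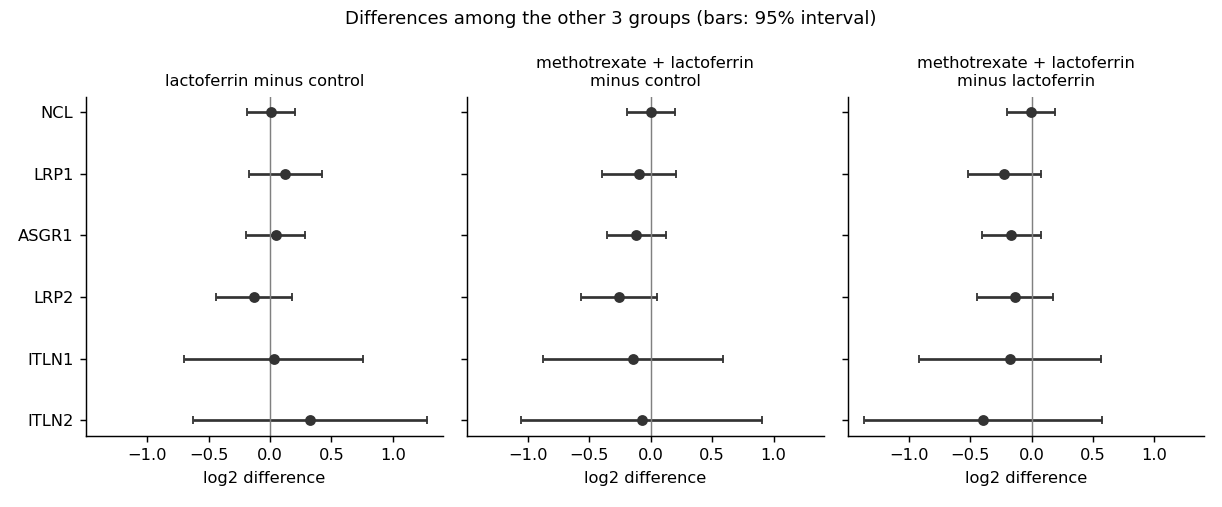
Log2 differences of the 6 genes, with 95% intervals from the edgeR fit, for lactoferrin minus control, the combined exposure minus control and the combined exposure minus lactoferrin. All 18 intervals include 0, and those of the intelectins are the widest.

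The combined exposure was compared with carrier fluid and with lactoferrin alone. Again no member passed the test in either comparison. LRP2 had the smallest unadjusted p of the 6 against control, with 138, 114 and 126 CPM in the combined libraries, a mean of 126 ± 12.2 CPM against 151 ± 31.1 CPM in control. Its fold was 0.834 (0.673 to 1.03), with an unadjusted p of 0.091 and an adjusted p of 1 by edgeR. Control replicate 3 was the highest of these 6 libraries at 187 CPM, and the other control libraries lay within the combined range.

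LRP1 was 720, 587 and 551 CPM under the combined exposure, a fold of 0.936 (0.760 to 1.15) of control, and NCL was 884, 989 and 1065 CPM, a fold of 1.00 (0.875 to 1.15). ASGR1 was 40.5, 39.8 and 35.8 CPM, a fold of 0.921 (0.779 to 1.09). ITLN1 had 13, 16 and 15 counts and ITLN2 had 8, 13 and 6, with folds of 0.903 (0.543 to 1.499) and 0.949 (0.481 to 1.87). Every one of these ranges overlapped that of the control libraries, while 7.84% of all genes did not overlap.

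Against lactoferrin alone, ASGR1 was the 1 member whose groups did not overlap, with all combined libraries lower, which was also so for 6.89% of all genes in either direction. Its log2 difference was -0.16 ± 0.11 (SE) with an adjusted p of 1. Over all genes, edgeR's quasi-likelihood test called 5 genes against control (0.0299%) and 3 against lactoferrin (0.0179%), and 591 and 564 had an unadjusted p under 0.05, with 0 members in each case. DESeq2 called 10 and 7 genes and limma-voom 0 and 0. A fit without the methotrexate libraries called 0 genes in both of these comparisons and in that of lactoferrin with control.

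Methotrexate alone was compared with carrier fluid. On the TMM scale LRP1 was higher and the other 5 genes lower, and 6 of 6 passed the test, in a comparison in which 64.5% of all genes did (35.4% higher and 29.1% lower). Nor did the groups overlap for any member, as for 71.5% of all genes. On the epithelial scale 75.9% of all genes were called, 75.3% higher and 0.562% lower, and 3 members were: LRP1 higher, LRP2 lower and NCL higher. LRP1 and LRP2 were thus the members that moved the same way past the threshold on both scales. The adipocyte, fibroblast and endothelial markers given above moved with each of these differences, and their part in them was not tested.

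LRP1 RNA stood at 1904, 1937 and 1628 CPM in the methotrexate libraries, each above the highest control library at 733 CPM. The mean rose from 662 ± 112 to 1823 ± 170 CPM (SD, n = 3), a log2 difference of 1.46 ± 0.14 (SE, adjusted p = 2.32e-07 by edgeR), or 2.76-fold (2.23 to 3.40). Relative to epithelial RNA the log2 difference was 2.39 (adjusted p = 4.29e-11), against the median of 0.95 for all genes on that scale. LRP1 is known to be made by fibroblasts and adipocytes, whose markers were higher in the same 3 libraries. Their part in the LRP1 difference was not tested.

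LRP2, a receptor of polarised absorptive epithelia such as the proximal tubule, went the other way. Its values were 61.7, 56.2 and 49.5 CPM under methotrexate, all below the lowest control library at 133 CPM. The log2 difference was -1.44 ± 0.15 (adjusted p = 4.15e-07 by edgeR), a fold of 0.369 (0.297 to 0.459). Relative to epithelial RNA it shrank to -0.51 with an adjusted p of 0.00251, a direction that few genes took on that scale. The summed enterocyte markers fell alongside on the TMM scale, with 9 of 10 lower, and none of the 10 passed the test on the epithelial scale. That scale is itself set by brush border and junction genes, so small differences of enterocyte markers there are partly built in.

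NCL was 771, 728 and 679 CPM with methotrexate against at least 937 CPM in control, and its direction depended on the scale. The log2 difference was -0.43 ± 0.09 on the TMM scale (adjusted p = 0.000685 by edgeR) and 0.49 on the epithelial scale (adjusted p = 0.000283). ASGR1 was 24.2, 23.5 and 19.1 CPM against at least 39.1 CPM in control, a log2 difference of -0.92 ± 0.11 (adjusted p = 3.4e-06). Relative to epithelial RNA it was 0.01, with an adjusted p of 0.966.

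Markers of hepatocytes, the main cells that carry the asialoglycoprotein receptor in the body, were 0 of 7 higher and 5 of 7 lower on the TMM scale, with none called on the epithelial scale. All 10 markers of this list, tested or not, summed to 2710 to 2917 CPM in control and 1340 to 1478 CPM with methotrexate, with F9 at 0 in both groups and CYP3A4 at 0 in control. ALB and SERPINA1 were the most abundant of them in control, at 1089 ± 48.7 and 1428 ± 70.0 CPM. Their part in the ASGR1 difference was not tested.

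The intelectins gave nearly the same counts in the deeper methotrexate libraries as in control, with sums of 52 and 51 for ITLN1 and of 26 and 30 for ITLN2. Per library ITLN1 had 13, 21 and 18 counts and ITLN2 had 7, 7 and 12. As CPM, ITLN1 was 0.321, 0.407 and 0.357 against at least 0.592 in control, and ITLN2 was 0.173, 0.136 and 0.238 against at least 0.296. Neither gene reached the filter's cut-off in any methotrexate library, so both passed it through the other groups, where they are higher. The tests of both are therefore not independent of the filter. The log2 differences were -1.02 ± 0.34 (adjusted p = 0.015) and -1.23 ± 0.46 (adjusted p = 0.0292) by edgeR on the TMM scale. Relative to epithelial RNA they were -0.10 and -0.32, with adjusted p of 0.801 and 0.56.

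These 2 calls were the least firm of the 6. Without control replicate 1, the library with the most ITLN1 counts in that group, the adjusted p of ITLN1 was 0.0965 and that of ITLN2 0.0988 by edgeR. The call of ITLN2 was also lost without control replicate 2 (0.0892), methotrexate replicate 1 (0.0661) or methotrexate replicate 2 (0.106), and in DESeq2 (0.0769). Without a filter on low counts both were lost, with adjusted p of 0.0665 and 0.0868. No library left out ended the call of LRP1, LRP2, NCL or ASGR1.

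**Figure D3:**
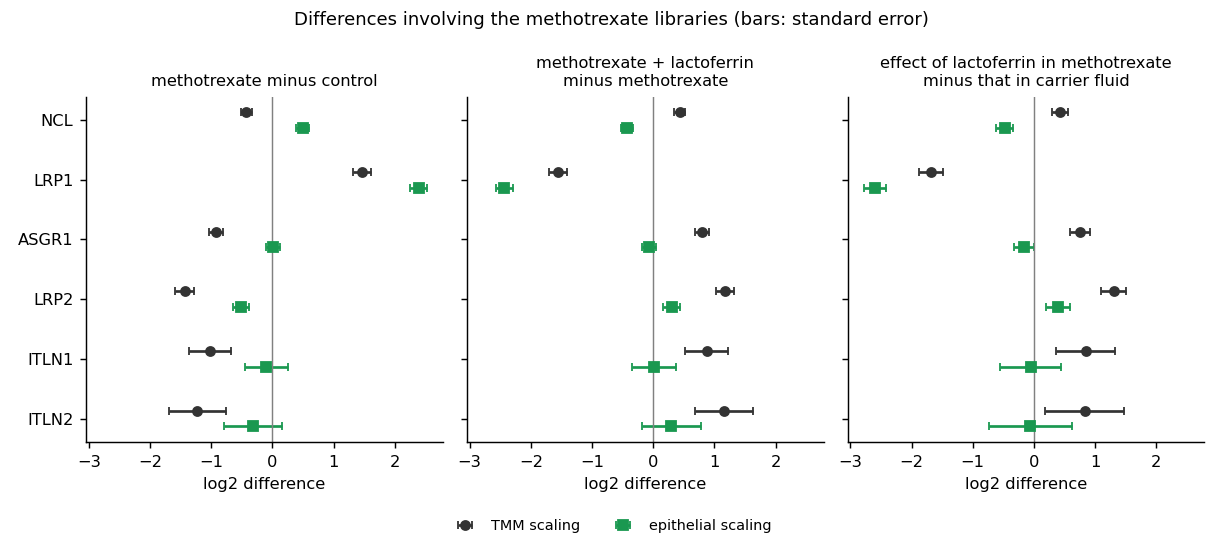
Log2 differences of the 6 genes, with standard errors, in the comparisons that hold the methotrexate libraries, on the TMM scale (circles) and the epithelial scale (squares). LRP1 lies farthest from 0 in each panel on both scales, NCL lies on opposite sides of 0 on the 2 scales, and ASGR1 moves to near 0 on the epithelial scale.

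Ratios of counts between members within a library do not depend on how libraries are scaled. LRP1 counts were 4.01, 5.49 and 3.85 times those of LRP2 in control and 30.8, 34.5 and 32.8 times with methotrexate. In the lactoferrin libraries the ratio was 5.32, 5.24 and 5.10, and under the combined exposure 5.20, 5.15 and 4.39. The methotrexate libraries stood apart from the other 9, with an exact two-sided permutation p of 0.1 against control, the smallest that 3 against 3 libraries allow.

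The ratio of LRP1 to NCL was 0.508, 0.773 and 0.768 in control and 2.47, 2.66 and 2.40 with methotrexate. NCL and ASGR1, both lower on the TMM scale, also did not keep their ratio, which went from 23.9, 22.0 and 24.0 to 31.8, 31.0 and 35.5. The ratio of ASGR1 to LRP2 was 0.331, 0.323 and 0.209 in control and 0.392, 0.418 and 0.386 with methotrexate. Each of these ratios had an exact permutation p of 0.1 against control, again the smallest possible, and none of the 5 ratios computed separated the lactoferrin or the combined libraries from control (exact p of 0.4 to 1).

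**Figure D4:**
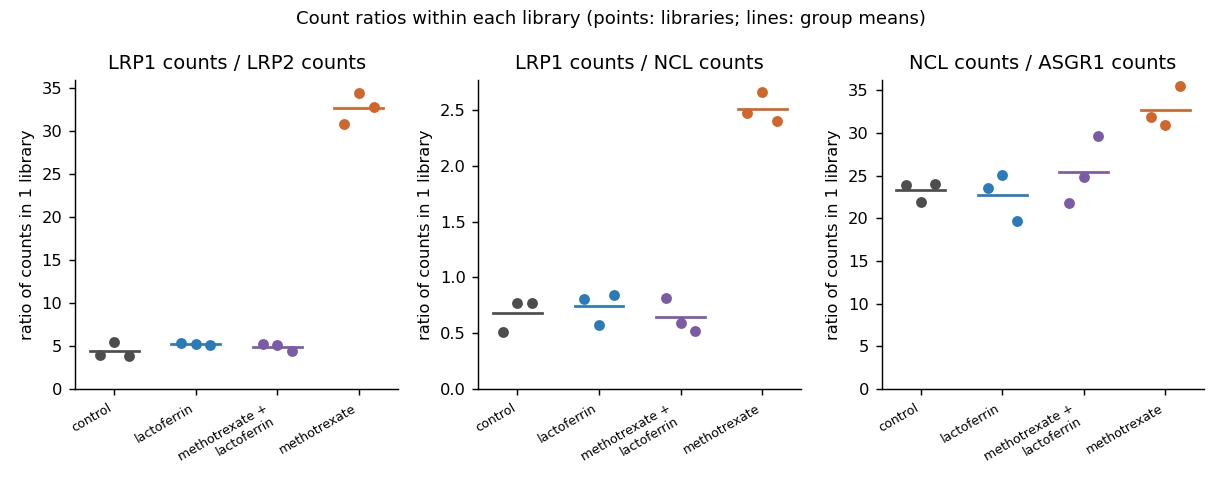
Ratio of counts of LRP1 to LRP2, LRP1 to NCL and NCL to ASGR1 inside each library, with points for libraries, lines for group means and axes that start at 0. The 3 methotrexate libraries lie above the other 9 in each panel, by the widest margin for LRP1 over LRP2.

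The genes that work with these receptors were read from lists of known family members and partners, and each count stands against the shares of all genes called between methotrexate and control, 35.4% higher and 29.1% lower on the TMM scale and 75.3% higher and 0.562% lower on the epithelial scale. Among 11 tested relatives in the LDL receptor family, methotrexate gave 6 higher and 4 lower on the TMM scale, with a median log2 difference of 0.26 (8 higher, 0 lower and a median of 1.18 on the epithelial scale, where the count is near the share of all genes). LRP5, a Wnt co-receptor, went from 452 ± 48.1 to 305 ± 60.9 CPM and LRP6, its partner in that role, from 150 ± 8.59 to 89.0 ± 4.06 CPM, both lower by edgeR on the TMM scale (adjusted p = 0.00188 and 7.13e-06). Relative to epithelial RNA LRP5 was higher by 0.35 (adjusted p = 0.0214) and LRP6 by 0.17 (adjusted p = 0.157). LRP10 was higher on both, by 0.43 and 1.36. LRP3 differed by 0.26 (adjusted p = 0.164) and by 1.18.

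Of 17 chaperones, adaptors and coat proteins that serve LRP1 and LRP2, 7 were higher and 3 lower (median 0.02), and 16 were higher and 0 lower on the epithelial scale (median 0.95), with medians at those of all genes on both scales. The most abundant were CLTC, the clathrin heavy chain, at 468 ± 26.2 CPM in control and 466 ± 9.88 CPM with methotrexate, and the clathrin adaptors AP2M1, PICALM and AP2B1, with log2 differences of 0.45, 0.68 and -0.35 on the TMM scale. On the epithelial scale these 4 differed by 0.92, 1.38, 1.61 and 0.57. DAB2, the adaptor that links megalin to clathrin, stood at 30.2 ± 4.43 CPM in control and 173 ± 17.7 CPM with methotrexate. Its log2 difference was 2.52 ± 0.13 (adjusted p = 8.26e-11 by edgeR), and 3.44 on the epithelial scale. LRPAP1, the chaperone that keeps ligands off both receptors during folding, differed by -0.07 (adjusted p = 0.615) on the TMM scale and by 0.86 on the epithelial scale. CUBN, which pairs with megalin at the apical membrane, stood at 6.63 ± 0.400 CPM in control and differed by -0.30 (adjusted p = 0.173), or 0.63 on the epithelial scale.

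The nucleolar partners of NCL gave 0 higher and 16 lower of 22 on the TMM scale with a median of -0.59, and 14 higher and 0 lower with a median of 0.33 on the epithelial scale, where 75.3% of all genes were called higher and the median of all genes was 0.95. NPM1, which shuttles ribosome parts, went from 1252 ± 88.8 to 803 ± 55.9 CPM, and FBL, the methyltransferase of ribosomal RNA, from 290 ± 19.6 to 157 ± 9.04 CPM. Their log2 differences were -0.64 and -0.88, and on the epithelial scale 0.29 (adjusted p = 0.013 by edgeR) and 0.04 (adjusted p = 0.726). DDX21 and TCOF1, which also serve ribosome production, differed by -0.76 and -0.82, and by 0.16 and 0.10 on the epithelial scale.

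Among 11 tested lectins, 6 were higher and 5 lower (median 0.27), against 7 higher and 0 lower on the epithelial scale (median 1.19), where 75.3% of all genes were higher. The abundant LGALS3, LMAN2 and LMAN1 differed by -0.32, -0.79 and 0.27, and by 0.61, 0.14 and 1.19 on the epithelial scale. ASGR2, the second subunit of the asialoglycoprotein receptor, followed ASGR1, at 68.7 ± 1.07 CPM in control and 33.3 ± 1.09 CPM with methotrexate. Its log2 difference was -1.04 ± 0.10 on the TMM scale and -0.12 (adjusted p = 0.338 by edgeR) on the epithelial scale. LGALS1, a galectin of mesenchymal cells, was among the most abundant lectins only through the methotrexate libraries. It went from 1.07 ± 0.319 to 945 ± 97.4 CPM, a log2 difference of 9.80, and 10.72 on the epithelial scale. It was also the 1 gene of these lists called under the combined exposure, at 3.07 ± 0.667 CPM (adjusted p by edgeR of 0.0133 against control and 0.00756 against lactoferrin). The call against control was lost without control replicate 2 or control replicate 3, in limma-voom, in a fit of only the groups compared and in a fit without the methotrexate libraries. In the comparison with lactoferrin, limma-voom, those same fits and a run without lactoferrin replicate 3 called 0 genes.

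Other surface molecules reported to bind lactoferrin gave 8 higher and 3 lower of 12 tested (median 1.21), and 10 higher and 0 lower on the epithelial scale (median 2.13), where 75.3% of all genes were higher and the median was 0.95. The proteoglycan GPC3 fell from 946 ± 88.0 to 501 ± 53.2 CPM on the TMM scale, with an epithelial log2 difference of 0.01, while HSPG2, the perlecan core protein, went from 457 ± 134 to 882 ± 131 CPM, with an epithelial log2 difference of 1.87. GAPDH, a glycolytic enzyme also found at the cell surface, differed by -0.29 (adjusted p = 0.0193 by edgeR) and by 0.63 on the epithelial scale, and the proteoglycan SDC4 by -0.29 (adjusted p = 0.0621) and by 0.64.

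Of the transferrin family and its receptors, 2 of 5 were higher and 3 lower, and 2 were higher and 0 lower on the epithelial scale. TF, the transferrin gene, went from 6.93 ± 1.02 CPM in control to 2336 ± 366 CPM with methotrexate, a log2 difference of 8.40, and 9.33 on the epithelial scale. MFI2 and TFR2 differed by -0.93 and -0.86, and by 0.00 and 0.06 on the epithelial scale. TFRC, the transferrin receptor of dividing cells, went from 445 ± 31.6 to 247 ± 12.9 CPM, with an epithelial log2 difference of 0.08 (adjusted p = 0.54 by edgeR).

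LTF, the gene of lactoferrin itself, was nearly silent in control, with 29 counts over the 3 libraries (0.399 ± 0.323 CPM). It gave 27 counts in the lactoferrin group and 36 in the combined group, and 776 counts in methotrexate (5.56 ± 1.44 CPM). The log2 difference between methotrexate and control was 3.73 ± 0.42 (adjusted p = 1.13e-06 by edgeR), and 4.65 on the epithelial scale. In the lactoferrin group it was 0.11 ± 0.57 (adjusted p = 1).

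The combined exposure was compared with the libraries labelled methotrexate alone. LRP1 was lower and the other 5 genes higher in the combined group on the TMM scale, and 6 of 6 passed the test, as did 63.2% of all genes. On the epithelial scale 2 members passed, LRP1 and NCL, both lower, in a comparison that called 74.1% of all genes (73.1% lower and 1.03% higher). This comparison shares its methotrexate libraries with that of methotrexate against control. The log2 difference of LRP1 was -1.56 ± 0.14 (adjusted p = 1.17e-07 by edgeR), and -2.43 on the epithelial scale. LRP2 was higher by 1.17 ± 0.15 (adjusted p = 4.05e-06), and by 0.30 on the epithelial scale, where it missed the threshold (adjusted p = 0.0552).

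NCL differed by 0.43 ± 0.09 (adjusted p = 0.000682 by edgeR) on the TMM scale and by -0.43 (adjusted p = 0.000941) on the epithelial scale. ASGR1 differed by 0.80 ± 0.11 (adjusted p = 1.59e-05) and by -0.07 (adjusted p = 0.601). ITLN1 differed by 0.87 ± 0.34 (adjusted p = 0.0369) and ITLN2 by 1.15 ± 0.47 (adjusted p = 0.0428), and by 0.01 and 0.30 on the epithelial scale, where neither passed. None of the ranges overlapped between these groups, as for 66.5% of all genes.

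The intelectin calls again hung on single libraries. That of ITLN1 was lost without combined replicate 2 or 3 or any 1 of the methotrexate replicates (adjusted p of 0.0606 to 0.121 by edgeR). That of ITLN2 was lost without control replicate 1 or 2, lactoferrin replicate 1, combined replicate 1 or 2, or methotrexate replicate 1 or 2 (0.0521 to 0.256). DESeq2 called neither, at 0.101 and 0.106, nor did edgeR without the filter on low counts, at 0.145 and 0.123. As above, both genes passed that filter only through groups other than methotrexate alone.

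The difference between the effect of lactoferrin in methotrexate and its effect in carrier fluid was tested as an interaction. It passed for 4 of the 6 members, in a test that called 46.7% of all genes. The log2 interaction was -1.68 ± 0.20 for LRP1 (adjusted p = 5.78e-06 by edgeR), 1.30 ± 0.21 for LRP2 (0.000102), 0.43 ± 0.13 for NCL (0.0139) and 0.75 ± 0.16 for ASGR1 (0.00129). The epithelial scale called 65% of all genes, 64.6% with a negative and 0.382% with a positive interaction. There LRP1 stood at -2.60, NCL turned to -0.48 (adjusted p = 0.00742), and LRP2 (0.39, adjusted p = 0.0864) and ASGR1 (-0.16, adjusted p = 0.429) did not pass. The interaction was 0.84 ± 0.48 for ITLN1 and 0.83 ± 0.65 for ITLN2, with adjusted p of 0.168 and 0.312. The marker RNA in the methotrexate libraries enters the interaction as it does the comparison with control, and its part was not tested.

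The genes most like each member over the libraries were found by Pearson correlation of log2 CPM among 11784 genes, as a description. All 12 libraries share the gap between methotrexate and the other groups, so many genes lie close to LRP1 (1714 with r of at least 0.9), LRP2 (1351), ASGR1 (1556) and NCL (965), against 33 for ITLN1 and 18 for ITLN2. The nearest were DOK1 (0.992), INF2 (0.991) and ZBTB4 (0.99) for LRP1, CYFIP1, ELAVL1 and RPN1 for LRP2 (0.986 to 0.987) and PROSER2, RYR1 and RMI2 for ASGR1 (0.991 to 0.992). For NCL they were PUS7 (0.985), B4GALT4 (0.984) and KLHL23 (0.979), for ITLN1 TAF15 (0.944) and FAM96A (0.927), and for ITLN2 SEMA3F (0.948), NES (0.936) and PRPF31 (0.931).

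Over the 9 libraries without methotrexate alone the lists were shorter, with 24 genes at r of at least 0.9 for LRP1, 20 for NCL, 10 for ITLN2, 7 for LRP2, 5 for ASGR1 and 3 for ITLN1. Among so many genes, unrelated ones can also reach this r over 9 libraries, and the number expected by chance was not computed. The nearest were TBCD, KLHL36 and TRRAP for LRP1 (0.95 to 0.951), TRAM2, CRKL and NOMO2 for LRP2 (0.922 to 0.928) and POLR3F, GCLC and EIF5B for NCL (0.934 to 0.946). They were LEPREL2, COMMD5 and RMI2 for ASGR1 (0.913 to 0.954), SMCO4, CDADC1 and FKBP5 for ITLN1 (0.91 to 0.942), and RSG1, SART1 and ENKD1 for ITLN2 (0.931 to 0.954). RMI2 was the 1 gene among the nearest 3 of a member, ASGR1, in both sets of libraries.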

How the data were processed

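RNA was sequenced from 12 libraries, 3 per group. The deposited table holds whole-number counts per gene and library with hg19 coordinates. The submitters' processing notes name CASAVA, STAR, DESeq2 and hg19; not given in the sources used here were versions, the counting program, the annotation and strand use. Genes were filtered with filterByExpr (edgeR 4.0.16, R 4.3.3), which left 16733, scaled with TMM, and tested with edgeR's quasi-likelihood F test in 1 fit of the 12 libraries, with 6 contrasts and Benjamini-Hochberg adjustment over all genes tested. The threshold was an adjusted p of 0.05. All 6 genes are described in every comparison. The other genes named are LTF, ASGR2, LRPAP1, CUBN and DAB2, the most abundant of each list, and those nearest by likeness. Abundance was the mean CPM over all 12 libraries, methotrexate included. A gene high only in methotrexate, such as LGALS1, could thus enter through its change. The members, lists and epithelial scale were chosen with earlier results of these data known. DESeq2 1.42.0, limma-voom (limma 3.58.1), other scalings, no filter, a replicate block, thinned methotrexate libraries and each library left out in turn were tried. A count of 3, the detection floor, corresponded to 0.0495 to 0.160 CPM. Each library was treated as a sample of its own. Replicates differed by 7.43 to 40.2 times counting noise, which does not show that they came from separate cultures. Same-numbered libraries were checked for pairing.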

Additional observations from a re-analysis of the deposited data

Results flagged for a closer look

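The log2 change with lactoferrin differed between spheroids given methotrexate and spheroids given carrier fluid for 4 of the 6 genes, by the interaction term of edgeR's quasi-likelihood test. That term called 46.7% of all genes. The difference was -1.68 for LRP1 (change of -1.56 in methotrexate and 0.12 in carrier fluid) and 1.30 for LRP2 (1.17 and -0.13). It was 0.43 for NCL (0.43 and 0.01) and 0.75 for ASGR1 (0.80 and 0.05). Of these, LRP1 and NCL passed on the epithelial scale, where 65% of all genes passed and NCL had the opposite sign. The adipocyte, fibroblast and endothelial marker RNA differed between the same libraries, and its part in these values was not tested.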

How the results depend on the processing

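Of 768 values recomputed for the members, 718 kept their side of the threshold, with the same direction in all but 32 that were not called and changed sign. Another 44 no longer passed but kept their sign, 0 newly passed, and 6 values called in the main test changed sign. Under the submitters' threshold (a fold over 2 and an adjusted p under 0.01) the number of members called was 2 in methotrexate against control, 2 in the combined exposure against methotrexate and 2 in the interaction, LRP1 and LRP2 each time, among 4525, 4400 and 3296 genes called. On the epithelial scale these numbers were 3, 2 and 2, among 12702, 12403 and 10879 genes. The 6 called values that changed sign did so on that scale: NCL at 0.49, -0.43 and -0.48 and ASGR1 at 0.0058, -0.071 and -0.16 in the same 3 comparisons. NCL still passed there, and ASGR1 did not (adjusted p of 0.966, 0.601 and 0.429 by edgeR). The epithelial scale lowered the control level of all 6 genes, by more than the SD for NCL (819 CPM) and ASGR1 (35.2 CPM), and the coding transcript length moved ASGR1 to 27.1 RPKM; the cause of the other changes was not tested. With each library left out in turn, 4 to 6 members were called in the first 2 comparisons and 4 in the interaction. Over all genes these runs called 9984 to 11481, 9781 to 10895 and 6996 to 8216. In the other 3 comparisons 0 members were called under any alternative run. No filter on low counts gave 17, 38 and 19 genes called in those comparisons, against 0, 5 and 3. Same-numbered libraries did not deviate together (r of -0.182 to 0.103 over 18 pairs, and 3 of 12 libraries correlated best with their own number). The replicate block gave 5 members in methotrexate against control, 4 in the combined exposure against methotrexate and 4 in the interaction, with ITLN1 or ITLN2 the calls lost. Over all genes the block called 10371, 10158 and 7293. The depth of the intelectins (6 to 21 counts per library) gave intervals as wide as 0.687-fold to 4.61-fold, for ITLN2 in the interaction.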

Other observations

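Over the 9 libraries without methotrexate alone, 6 relations among LRP1, LRP2, NCL and ASGR1 were computed from log2 CPM, which share the scaling of each library. LRP1 and NCL ran in opposite directions, with Pearson's r of -0.811 (exact permutation p = 0.0117, adjusted 0.0703) and Spearman's rho of -0.733 (exact permutation p = 0.0311, adjusted 0.0865). Without the 2 libraries farthest from the median of LRP1, r was -0.615. LRP1 and LRP2 gave r of 0.632 (exact permutation p = 0.0646, adjusted 0.194) and rho of 0.70 (exact permutation p = 0.0433, adjusted 0.0865), and r of 0.728 without the 2 extreme libraries. None of the 6 relations passed an adjusted p of 0.05.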
